A study of Rattus norvegicus with 8 samples.

Results

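A set of 10 liver genes that make, use or move cysteine, taurine and glutathione was followed in rat livers perfused with hypoosmotic or normoosmotic buffer. The set comprised the cysteine-forming enzyme genes Cbs and Cth, the taurine genes Cdo1, Csad and Slc6a6, the glutathione synthesis genes Gclc, Gclm and Gss, and the glutathione-degrading enzyme genes Chac1 and Ggt1. They were chosen by name, with earlier results of these data known. All 10 were found among the 14511 genes measured, each through 1 probe set. The 4 hypoosmotic samples came from livers of male Wistar rats perfused with Krebs-Henseleit buffer of 225 mosm/L, a dilute salt solution in which hepatocytes take up water. The 4 normoosmotic samples were perfused with the same kind of buffer at 305 mosm/L. The rats were 6 to 10 weeks old, all samples carry the 180 min label, and each RNA was hybridised to 1 Affymetrix whole-transcript array. Values are the deposited log2 expression values. Changes are differences of mean log2 values, hypoosmotic minus normoosmotic, with the standard error (SE) of the fit. Whether each sample stands for its own animal is not given in the labels, and the p-values therefore cover only the spread among these arrays, part of which may be technical.

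Hepatocytes form cysteine from methionine by transsulfuration, in which homocysteine is joined to serine and the product is cleaved. Cysteine is then either oxidised and decarboxylated on the way to taurine, which conjugates bile acids and serves as an organic osmolyte, or joined to glutamate and glycine to give glutathione, the main thiol antioxidant of liver. Swollen cells are known to release osmolytes, taurine among them, and the liver exports glutathione, which is taken apart outside the cell by a surface transferase and inside it by cyclotransferases.

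The arrays split by buffer along the first principal component (34.7% of the variance). Hypoosmotic replicate 3 stood apart along the second (18.9% of the variance), with a score of 28.5 against -15.3 to 6.6 for the rest, and results that lean on this array are given without it as well. Over all genes 1026 passed a limma test at a Benjamini-Hochberg adjusted p under 0.05, 356 higher and 670 lower. With each array centred on its median the split was 235 higher and 733 lower. Hepatocyte markers were high throughout, with a list mean of 11.70 to 11.77 in hypoosmotic and 11.62 to 11.79 in normoosmotic arrays. In homogenised liver, a different number of cells of a type and a different amount of RNA per cell cannot be told apart.

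Cbs and Chac1 rose in hypoosmotic livers, the first forming cystathionine on the way to cysteine and the second degrading glutathione, and none of the 10 genes fell by the test. These 2 of 10 rises stand beside 2.45% of all genes called higher, the 0 falls beside 4.62% called lower, and the 2 calls in all beside 7.07% called either way. All genes include dim ones that are seldom called. Without the dimmest 30%, 390 of 10156 genes were called higher and 744 lower, and again 2 of the 10 rose and 0 fell. The change was positive for 9 of the 10 genes, against 53.3% of all genes, and the median change was 0.30, against 0.02 over all genes. An unadjusted p under 0.05 by limma was reached by 5 of the 10 genes and by 2999 of the 14511. The values of the groups did not overlap for 3 of the 10, Cbs and Chac1 upwards and Gss downwards, beside 13.5% of all genes without overlap.

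**Figure D1:**
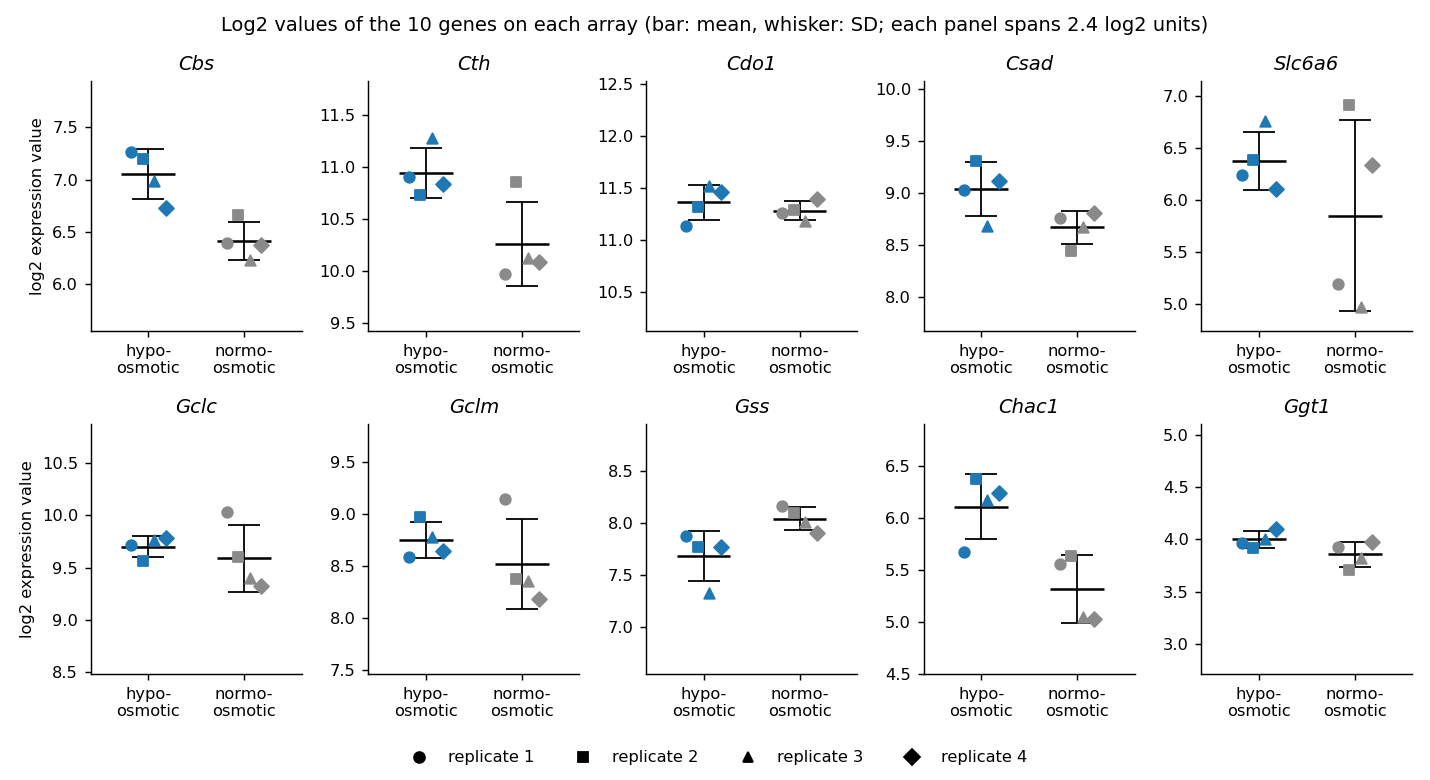
Log2 expression values (vertical axes) of the 10 genes on each array, hypoosmotic (blue) left of normoosmotic (grey), with the mean (bar), the SD (whisker) and a symbol for each replicate number. Cbs, Chac1 and Gss have no overlap between groups, while the normoosmotic values of Slc6a6 reach from 4.97 to 6.91.

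**Figure D2:**
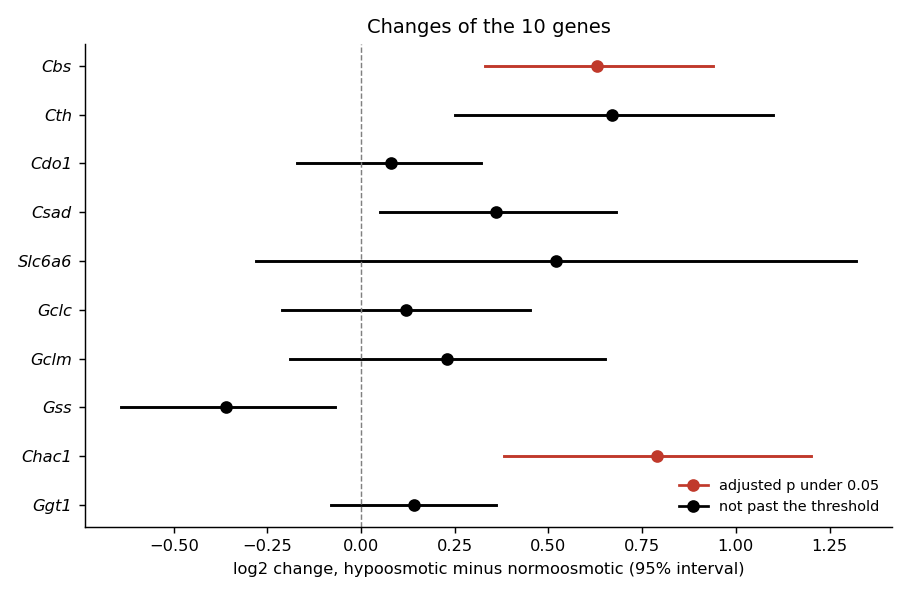
Log2 change, hypoosmotic minus normoosmotic, of each gene with its 95% interval from limma (horizontal axis), in red where the adjusted p is under 0.05. The intervals of Cbs, Cth, Csad and Chac1 lie above 0 and that of Gss lies below 0, and only Cbs and Chac1 are red.

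Transsulfuration begins with cystathionine beta-synthase, the product of Cbs, which joins homocysteine to serine. Its log2 values were 7.26, 7.20, 6.99 and 6.73 in hypoosmotic replicates 1 to 4, against 6.39, 6.66, 6.23 and 6.37 in normoosmotic replicates 1 to 4. Every hypoosmotic value lay above every normoosmotic one, although the lowest hypoosmotic value (replicate 4) and the highest normoosmotic value (replicate 2) differed little. The means were 7.05 ± 0.24 in hypoosmotic and 6.41 ± 0.18 in normoosmotic livers (SD, n = 4 each), a change of 0.63 ± 0.14 (SE), or 1.55-fold, with a limma adjusted p of 0.0228. When single arrays were omitted the call held in 3 of 8 fits, with adjusted p-values of 0.0133 to 0.0727, the highest without normoosmotic replicate 3. It was also lost without hypoosmotic replicate 1 (0.0596) or 2 (0.0663) and without normoosmotic replicate 1 (0.0564) or 4 (0.0623), while the change stayed between 0.56 and 0.74. Without hypoosmotic replicate 3 it was 0.65 ± 0.15 (0.0356).

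Cystathionine gamma-lyase, the product of Cth, releases cysteine from cystathionine. Cth had log2 values of 10.90, 10.73, 11.28 and 10.84 in hypoosmotic replicates 1 to 4, against 9.97, 10.86, 10.13 and 10.09 in normoosmotic replicates 1 to 4. All normoosmotic arrays but replicate 2 lay well below the hypoosmotic ones, and replicate 2 lay among them. The change was 0.67 ± 0.19 (SE; 95% interval 0.25 to 1.10), which did not pass (limma adjusted p = 0.061). Without normoosmotic replicate 2 it was 0.87 ± 0.14 and passed (adjusted p = 0.0145), and without hypoosmotic replicate 3 it was 0.56 (adjusted p = 0.124). Its normoosmotic arrays were spread more widely than those of Cbs (SD 0.40 for Cth and 0.18 for Cbs).

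Promoter sequences were taken from RefSeq, where 9 of the 10 genes were matched. The 250 bases before the annotated start are printed for Cbs and Chac1, because these genes rose, and for Gclm, because it is a well-known target of the antioxidant regulator NRF2 and did not pass. Capitals mark the GC box (GGGCGG) in Cbs, the composite element of ATF4 and C/EBP factors (TGATGNAA) in Chac1 and the antioxidant response element (TGACNNNGC) in Gclm, each searched on both strands.
Cbs: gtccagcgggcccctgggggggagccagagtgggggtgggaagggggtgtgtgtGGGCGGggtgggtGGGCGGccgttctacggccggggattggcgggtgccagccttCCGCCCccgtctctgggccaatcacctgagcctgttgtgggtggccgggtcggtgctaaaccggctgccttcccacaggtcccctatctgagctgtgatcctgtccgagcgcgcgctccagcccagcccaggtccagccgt
Chac1: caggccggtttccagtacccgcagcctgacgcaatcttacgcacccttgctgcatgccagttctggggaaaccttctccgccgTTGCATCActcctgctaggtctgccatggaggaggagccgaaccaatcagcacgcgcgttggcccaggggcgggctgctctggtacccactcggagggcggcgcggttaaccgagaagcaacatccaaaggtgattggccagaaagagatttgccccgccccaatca
Gclm: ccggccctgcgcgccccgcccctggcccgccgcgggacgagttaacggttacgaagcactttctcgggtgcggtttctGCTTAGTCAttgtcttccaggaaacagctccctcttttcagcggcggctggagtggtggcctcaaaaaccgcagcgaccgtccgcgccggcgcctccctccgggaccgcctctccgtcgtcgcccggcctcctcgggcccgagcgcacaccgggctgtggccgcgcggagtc
The stretches lie at chr20:9733926-9734175 on the minus strand for Cbs, chr3:126795881-126796130 on the plus strand for Chac1 and chr2:213031885-213032134 on the plus strand for Gclm, all in GRCr8.

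The ATF4 composite element matched in Chac1 alone of the 9 promoters, 167 to 160 bases before the start, and in 3.4% of all 33469 promoter windows of this length. Slc6a6 and Gclm held the antioxidant response element, which 10.1% of all windows hold, and Cth held an E-box (CACGTG), which 5.59% hold. The GC box was found in 7 of the 9, against 30.5% of all windows, with 3 matches each in Cbs, Chac1 and Slc6a6. No matches of different motifs overlapped in these promoters. Such matches describe letters in these windows and do not show binding.

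Cysteine dioxygenase, encoded by Cdo1, oxidises cysteine to the sulfinate that feeds taurine formation. Cdo1 had log2 values of 11.13 to 11.52 in hypoosmotic and 11.18 to 11.39 in normoosmotic livers, and the groups overlapped throughout. The change was 0.08 ± 0.11 (SE), with a 95% interval of -0.17 to 0.32 (limma adjusted p = 0.785). The groups were narrow, with SDs of 0.17 in hypoosmotic and 0.09 in normoosmotic livers.

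Csad encodes the decarboxylase that turns this sulfinate into hypotaurine, the precursor of taurine. Csad had log2 values of 9.03, 9.31, 8.68 and 9.12 in hypoosmotic replicates 1 to 4, against 8.76, 8.44, 8.67 and 8.81 in normoosmotic replicates 1 to 4. Hypoosmotic replicate 3 lay among the normoosmotic arrays and the other hypoosmotic arrays lay above them. The change was 0.36 ± 0.14 (SE; 95% interval 0.05 to 0.68) and did not pass (limma adjusted p = 0.167). Without hypoosmotic replicate 3, the array that stood apart over all genes, it was 0.48 ± 0.12 and passed (adjusted p = 0.0477).

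The taurine transporter gene Slc6a6, whose product carries taurine into cells with sodium and chloride, varied most from array to array. On the log2 scale it had 6.24, 6.38, 6.76 and 6.10 in hypoosmotic replicates 1 to 4, against 5.19, 6.91, 4.97 and 6.33 in normoosmotic replicates 1 to 4. The normoosmotic arrays divided into a low pair (replicates 1 and 3) and a high pair (replicates 2 and 4), and the high pair overlapped the hypoosmotic arrays. The SD was 0.28 in hypoosmotic and 0.92 in normoosmotic livers, and the pooled within-group SD of 0.68 exceeded that of 99.3% of all genes. The change of 0.52 ± 0.37 (SE) had a 95% interval of -0.28 to 1.32 (limma adjusted p = 0.498). It was 0.87 without normoosmotic replicate 2 and 0.23 without normoosmotic replicate 3, and it passed in 0 of the 8 fits without 1 array. Nfat5, which encodes the factor that drives Slc6a6 and other osmolyte transport genes in hyperosmotic cells, fell by 1.24 ± 0.14 on the log2 scale (adjusted p = 0.00313).

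Glutamate-cysteine ligase catalyses the limiting step of glutathione synthesis and consists of a catalytic subunit, Gclc, and a modifier subunit, Gclm. For Gclc the log2 values were 9.72, 9.56, 9.76 and 9.78 in hypoosmotic replicates 1 to 4, against 10.03, 9.60, 9.40 and 9.32 in normoosmotic replicates 1 to 4. For Gclm they were 8.59, 8.97, 8.78 and 8.64 in hypoosmotic replicates 1 to 4, against 9.14, 8.38, 8.36 and 8.18 in normoosmotic replicates 1 to 4. Both subunit genes had their highest value of the 8 arrays in normoosmotic replicate 1 and their lowest in normoosmotic replicate 4, so the hypoosmotic values lay within the normoosmotic range.

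The change was 0.12 ± 0.15 (SE; 95% interval -0.21 to 0.45, limma adjusted p = 0.748) for Gclc. It was 0.23 ± 0.19 (SE; 95% interval -0.19 to 0.65, adjusted p = 0.582) for Gclm. Without normoosmotic replicate 1 the changes were 0.26 ± 0.12 for Gclc and 0.44 ± 0.13 for Gclm, and neither passed (adjusted p = 0.261 for Gclc and 0.0866 for Gclm). After each gene was centred on its own mean, the profiles of both subunit genes over the 8 arrays differed by a root mean square of 0.19. Among all pairs within the set only the low-variance pair Cdo1 and Ggt1 (0.12) was closer, and the pair Cbs and Cth differed by 0.28.

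Glutathione synthetase, the product of Gss, adds glycine in the final step. Gss had log2 values of 7.87, 7.77, 7.33 and 7.77 in hypoosmotic replicates 1 to 4, against 8.16, 8.09, 8.01 and 7.90 in normoosmotic replicates 1 to 4. Every hypoosmotic value was below every normoosmotic one, by little between hypoosmotic replicate 1 and normoosmotic replicate 4. Gss was the only gene of the set with a negative change, at -0.36 ± 0.13 (SE; 95% interval -0.64 to -0.07), and it did not pass (limma adjusted p = 0.139). Hypoosmotic replicate 3 was its lowest array, and without it the change was -0.24 ± 0.11 (adjusted p = 0.243).

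Chac1 encodes a cytosolic gamma-glutamylcyclotransferase that splits glutathione and is a target of the stress factor ATF4, whose composite element its promoter window held. Chac1 had log2 values of 5.67, 6.37, 6.17 and 6.24 in hypoosmotic replicates 1 to 4, against 5.56, 5.64, 5.05 and 5.03 in normoosmotic replicates 1 to 4. The groups did not overlap, but hypoosmotic replicate 1 lay just above normoosmotic replicate 2. The means were 6.11 ± 0.31 in hypoosmotic and 5.32 ± 0.33 in normoosmotic livers (SD, n = 4 each), a change of 0.79 ± 0.19 (SE), or 1.73-fold (limma adjusted p = 0.028). This was the largest change of the 10 genes.

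Omitting single arrays kept the call for Chac1 in 3 of 8 fits, with adjusted p-values of 0.0184 to 0.0862, the highest without normoosmotic replicate 3. It was also lost without hypoosmotic replicate 2 (0.0806), 3 (0.0523) or 4 (0.0575) and without normoosmotic replicate 4 (0.0806). The change of Chac1 stayed between 0.70 and 0.94 in those fits. No omission turned the direction of Cbs or Chac1, and a fit with fewer arrays also has less power.

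Ggt1 encodes the surface gamma-glutamyltransferase that starts the breakdown of glutathione outside the cell and is known in adult liver mainly from bile duct cells. Ggt1 had log2 values of 3.92 to 4.10 in hypoosmotic and 3.71 to 3.98 in normoosmotic livers, and the groups overlapped. The mean lay 0.86 above 3.07, a level that 95% of 1105 odorant receptor genes, taken as unexpressed in liver, stayed below. Each of the other genes lay further above that level. The change was 0.14 ± 0.10 (SE), with a 95% interval of -0.08 to 0.36 (limma adjusted p = 0.519). Of 7 measured bile duct markers 0 passed by limma and 0 had an unadjusted p under 0.05. Their mean value was 3.80 to 3.83 in hypoosmotic and 3.76 to 3.80 in normoosmotic arrays, and 5 of the 7 lay above 3.07 on average.

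**Figure D3:**
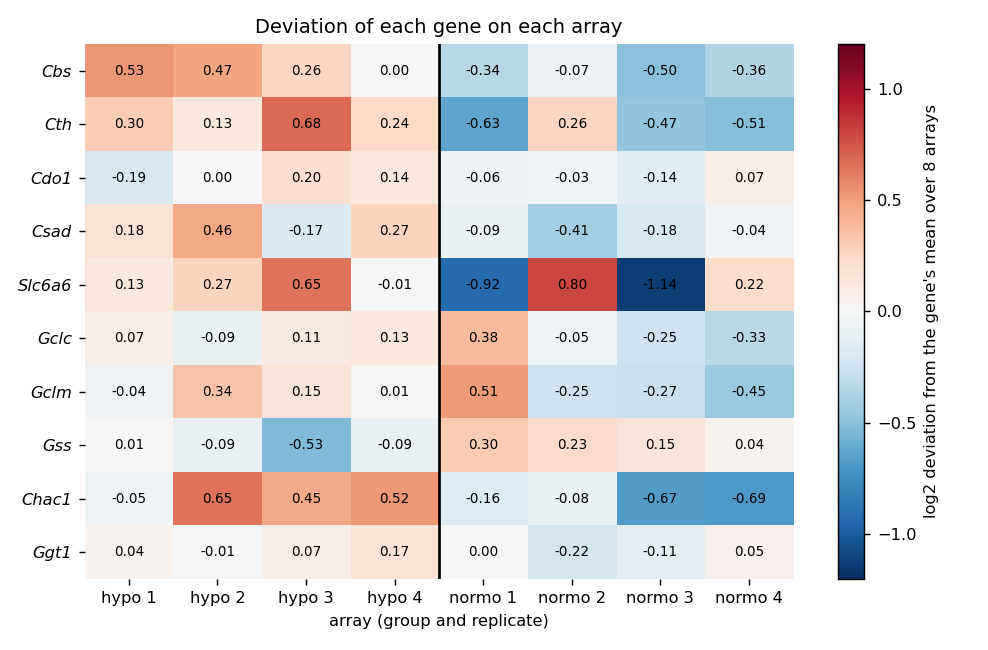
Deviation of each gene from its own mean over the 8 arrays, on the log2 scale (colour and printed value), with hypoosmotic arrays left of the black line and normoosmotic arrays right of it. Slc6a6 spans -1.14 to 0.80 within the normoosmotic arrays, and Gclc and Gclm share their highest array, normoosmotic replicate 1.

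**Figure D4:**
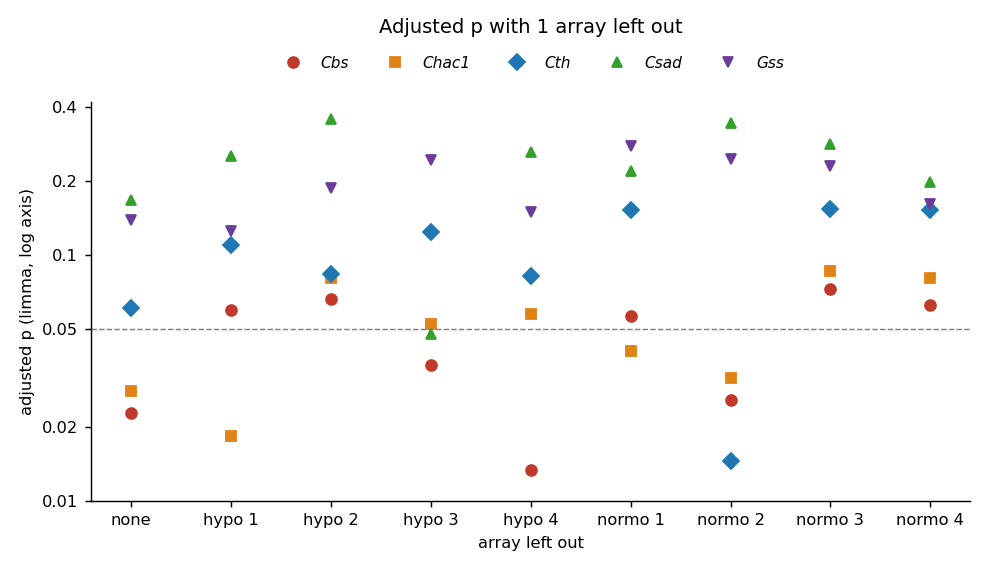
Adjusted p from limma (vertical log axis) of Cbs, Chac1, Cth, Csad and Gss with all arrays and with each array left out (horizontal axis), the dashed line at 0.05. Cbs and Chac1 each lie below the line for 3 of the 8 omitted arrays, Cth and Csad for 1 each and Gss for 0.

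The array-to-array pattern of the 3 most variable genes was also compared with every other gene, by the root mean square difference of centred log2 values over the 8 arrays. The nearest to Slc6a6 were Coq8a (0.28), Kynu (0.33) and Pnkd (0.33). Nearest to Chac1 were Ndufaf1 (0.18), Creg1 (0.19) and Laptm4b (0.19), with changes of 0.73, 0.67 and 0.70 in that order. For Cth they were Tnfrsf9, Pttg1 and Rreb1, each at 0.16. These distances describe 8 shared arrays and carry no test.

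Around the 10 genes, 139 measured genes (of 153 sought) in 9 lists were read from the same fit, of which 8 rose and 2 fell. That is 5.76% higher and 1.44% lower, beside 2.45% and 4.62% of all genes, and 73.4% of them had a positive change, against 53.3% of all genes. Without the dimmest 30% of genes, 11 of the listed genes rose and 3 fell, beside 390 and 744 of 10156 genes. The balance depended on the scaling, since 3 rose and 4 fell with each array centred on its median, and 14 rose and 1 fell after a further quantile normalization. Of the 10 called genes, Abcc2 passed in each of the 8 fits without 1 array, Gstm4 in 7, Nnmt in 6 and the others in 1 to 3. With every array kept, Sqor, Glrx, Gstp1, Gsto2, Ggact and Slc25a39 each lost the call under at least 1 alternative, and the highest adjusted p of each ran between 0.0594 for Glrx and 0.094 for Sqor. Without hypoosmotic replicate 3 the adjusted p was 0.0587 for Esd, 0.0845 for Glrx, 0.0619 for Gsto2 and 0.0516 for Ggact, and the other 6 passed.

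In the methionine cycle, which supplies homocysteine, 1 of 12 genes rose and 0 fell, with a median change of 0.18. The gene that rose was Nnmt, whose enzyme spends the methyl donor on nicotinamide, at 6.81 ± 0.18 in hypoosmotic and 6.28 ± 0.05 in normoosmotic livers (SD, n = 4 each; limma adjusted p = 0.0182). Of 7 genes that make or convert serine, the other substrate of cystathionine formation, 0 passed, although all 7 had a positive change (median 0.23). The smallest adjusted p among them was that of Shmt2, the mitochondrial serine hydroxymethyltransferase, at 0.202 with a change of 0.28 ± 0.12 (SE), and 1 of the 7 had an unadjusted p under 0.05 by limma.

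Beside Cdo1 and Csad, 12 genes of cysteine breakdown, sulfide oxidation and taurine use were measured, of which 0 rose and 1 fell (median change 0.23). This was Sqor, whose mitochondrial enzyme oxidises sulfide, a product that Cbs and Cth can also form. Its log2 values were 6.16, 6.25, 7.43 and 6.34 in hypoosmotic replicates 1 to 4, against 7.42, 7.43, 7.45 and 7.53 in normoosmotic replicates 1 to 4. The normoosmotic values were nearly equal, and hypoosmotic replicate 3 lay among them while the other hypoosmotic arrays lay far below. Sqor fell by 0.91 ± 0.24 (SE) on the log2 scale with all arrays (limma adjusted p = 0.0414) and by 1.21 ± 0.10 without hypoosmotic replicate 3 (0.0012). It passed in that fit alone of the 8 without 1 array, the highest adjusted p being 0.112 without hypoosmotic replicate 2. With every array kept, Sqor passed in 5 of the 8 alternatives, the highest adjusted p being 0.094 with its probe sets averaged.

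**Figure D5:**
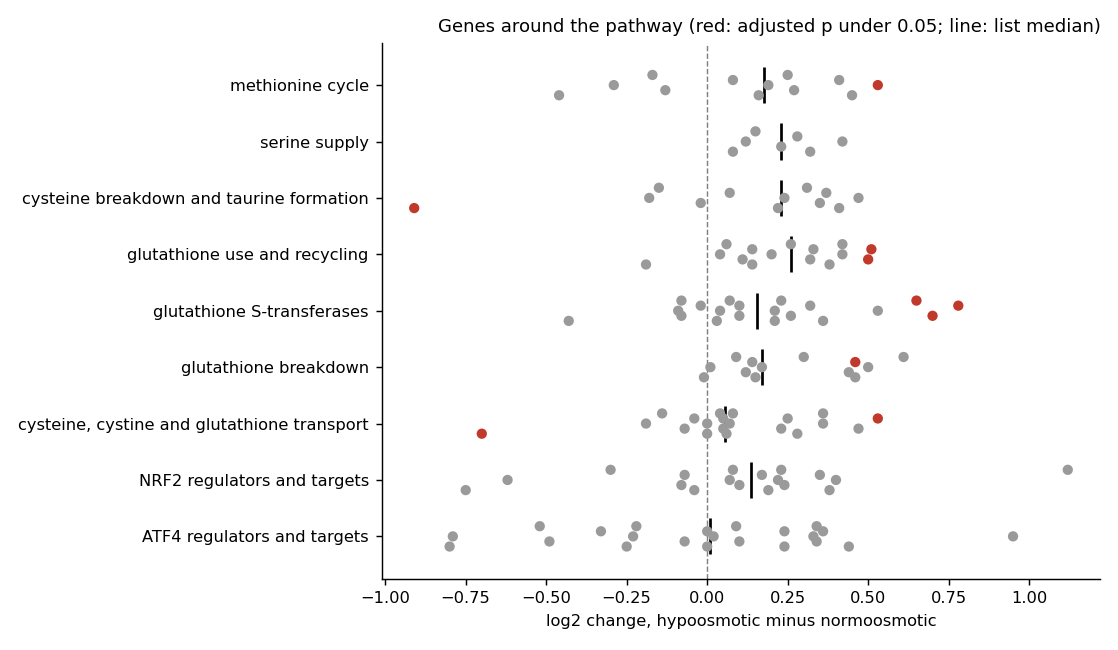
Log2 change, hypoosmotic minus normoosmotic (horizontal axis), of each measured gene in the 9 lists around the pathway, with the list median as a black line and genes at an adjusted p under 0.05 in red. Red points lie right of 0 except Sqor, at -0.91, and Abcc2, at -0.70, and the ATF4 and NRF2 lists have no red point.

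Of 15 genes that use or regenerate glutathione 2 rose and 0 fell, 14 of the 15 had a positive change, and the median was 0.26. They were Esd, whose enzyme hydrolyses S-formylglutathione (0.50 ± 0.12 SE, limma adjusted p = 0.0302), and Glrx, a glutaredoxin that reduces glutathionylated proteins (0.51 ± 0.13, 0.0426). Among 20 glutathione S-transferase genes, whose enzymes conjugate glutathione to foreign compounds, 3 rose and 0 fell (median 0.16). Gstm4 was at 7.69 ± 0.32 in hypoosmotic and 6.91 ± 0.16 in normoosmotic livers (SD, n = 4 each; limma adjusted p = 0.016), Gstp1 rose by 0.70 ± 0.18 (0.0375) and Gsto2 by 0.65 ± 0.17 (0.0439). Probes of such similar genes can share signal. Of the 13 other genes listed with glutathione breakdown 1 rose, and 12 of the 13 had a positive change. The 1 that rose was Ggact (0.46 ± 0.12, limma adjusted p = 0.0391), a cyclotransferase that acts on glutamyl-lysine and not on glutathione. Chac2, the close relative of Chac1, had a change of 0.46 ± 0.15 (adjusted p = 0.086).

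Of 20 transport genes for cysteine, cystine, taurine or glutathione 1 rose and 1 fell, with a median change of 0.05. Abcc2, the canalicular pump that exports glutathione conjugates into bile, had log2 values of 9.96 to 10.25 in hypoosmotic and 10.57 to 11.08 in normoosmotic livers. It fell by 0.70 ± 0.13 (SE) on the log2 scale (limma adjusted p = 0.0109), and the groups did not overlap. Slc25a39, which carries glutathione into mitochondria, rose by 0.53 ± 0.13 (0.0375). The cystine importer gene Slc7a11 had 5.53 in hypoosmotic and 5.52 in normoosmotic livers on average (SE of the change 0.46).

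NRF2 and ATF4 are the regulators best known for driving genes of this set. Of 18 listed NRF2 regulators and targets 0 passed by limma, 7 had an unadjusted p under 0.05 and the median change was 0.14. Those 7 went both ways. The changes of Nqo1 (1.12), Blvrb (0.40), Taldo1 (0.38) and Srxn1 (0.35) were positive. Those of Mafk (-0.62), Maff (-0.75) and Keap1 (-0.30) were negative. This list mixes regulators with targets. It holds neither Gclc and Gclm nor the S-transferase genes, among which Gstm4 and Gstp1 passed. Over the 8 alternatives that kept every array, 0 to 3 genes of the NRF2 list rose and 0 to 1 fell. There were 3 higher and 1 lower under array weights and 3 higher after quantile normalization. Without hypoosmotic replicate 3, 2 rose and 0 fell. Nfe2l2, the gene of NRF2 itself, had a change of 0.23 ± 0.10 (SE, adjusted p = 0.246), and of 0.15 ± 0.10 without hypoosmotic replicate 3 (0.44). Its target Nqo1, a quinone reductase, had a change of 1.12 ± 0.31 (0.056). Nqo1 passed in 4 of those 8 alternatives and, of the fits without 1 array, only without hypoosmotic replicate 3 (1.39 ± 0.26, 0.0158). Of 22 listed ATF4 regulators and targets, also a mixed list, 0 passed, 5 had an unadjusted p under 0.05 by limma and the median was 0.01. In the same 8 alternatives 0 of the ATF4 list rose and 0 to 1 fell, and without hypoosmotic replicate 3, 0 rose and 2 fell. Atf4 had a change of -0.33 ± 0.12 (adjusted p = 0.143) and Asns, a common target, one of 0.24 ± 0.29 (0.73). Eif2ak3, the gene of the kinase PERK upstream of ATF4, had a change of -0.79 ± 0.24 (0.0705, and 0.0139 without hypoosmotic replicate 3). It passed in 3 of the 8 alternatives. Of the 5 genes of this list with an unadjusted p under 0.05 by limma, Atf4, Eif2ak3 and Gdf15 (-0.80) had negative changes. Aldh1l2 (0.33) and Atf5 (0.34) had positive ones. These are mRNA values and do not measure the activity of the proteins. Any part of NRF2 or ATF4 in the changes of the set was not tested.

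Few markers of other liver cells passed, and their part in the results was not tested. Of 6 measured endothelial markers 1 rose (Kdr, 0.66 ± 0.15 SE, limma adjusted p = 0.028), 3 had an unadjusted p under 0.05, all 6 had a positive change (median 0.34), and the list mean was 6.88 to 7.38 in hypoosmotic and 6.64 to 6.90 in normoosmotic arrays. Of 10 stellate cell markers 1 rose (Colec11, 0.48 ± 0.12, 0.0407), 3 had an unadjusted p under 0.05 and 9 a positive change (median 0.21), with list means of 6.13 to 6.76 in hypoosmotic and 6.30 to 6.32 in normoosmotic arrays. Without hypoosmotic replicate 3 neither Kdr (0.0516) nor Colec11 (0.0758) passed. Of 10 macrophage markers 0 passed, 0 had an unadjusted p under 0.05 by limma, with list means of 6.20 to 7.06 in hypoosmotic and 6.17 to 6.70 in normoosmotic arrays. Lymphocyte (9), neutrophil (10) and hepatocyte (10) markers had 0 calls by limma, and an unadjusted p under 0.05 was seen for 1 hepatocyte marker and 0 of the lymphocyte and neutrophil ones. Only 4 of the 9 lymphocyte and 0 of the 10 neutrophil markers lay above the odorant receptor level on average, so their lack of calls says little. In addition 1 of 6 red cell markers rose (Ahsp, 0.56 ± 0.14, 0.0343), at 2.12 in hypoosmotic and 1.56 in normoosmotic livers, below the odorant receptor level of 3.07.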

How the data were processed

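The authors deposited log2 expression values of 27596 probe sets on 8 arrays, 1 per sample, with array medians of 3.92 to 4.05. Per the submitters' processing notes the tools were RMA, Transcriptome Analysis Console 4.0 and Affymetrix Expression Console, in no stated order. RMA equalises the distributions of probe signals, so a change common to most genes would be lost. The array medians of the deposited values still differed somewhat. Scanner files were not used here. The array annotation of 2016 gave 15316 probe sets 1 gene symbol, 317 several and 11963 none. The probe set with the highest mean stood for each of 14511 genes. Limma 3.58.1 (R 4.3.3; lmFit, eBayes, group as the only term) was fitted to all genes, with Benjamini-Hochberg adjustment over all of them and a threshold of 0.05. The 4 arrays per group limit the precision. The fit was tested on simulated data before use; Python 3.11.15 summarised the results.

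The members, lists and tests were chosen with earlier results of these data known. Named were all members, the called genes of each list (at most 4, of cell markers at most 2, otherwise the smallest p), 3 regulators and the nearest profiles. Slc7a11, Asns and Chac2 were named after their values were seen. So were the further genes of the NRF2 and ATF4 lists with an unadjusted p under 0.05 by limma. Alternatives were a replicate term, trended robust variances, array weights, quantile normalization, median centring, a filter on dim genes, averaged probe sets, all probe sets together, and leaving out each array.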

Additional observations from a re-analysis of the deposited data

How the results depend on the processing

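Cbs and Chac1 were called in all 8 alternatives that kept every array, with adjusted p-values of 0.0126 to 0.0355 for Cbs and 0.0245 to 0.0404 for Chac1 (limma). No member changed direction in any fit. With 1 array left out, 0 to 3 members rose, 468 to 1051 genes changed in all, 1 to 8 context genes rose and 1 to 4 fell. Of the context genes, 8 of which rose and 2 fell, 13 rose and 4 fell with array weights, 14 and 1 after quantile normalization, 3 and 4 with median centring, and 3 and 1 with all probe sets tested together. Averaging probe sets left 1 fall. With the replicate number as a block (replicate block), 4 fell and 1029 genes changed in all. Same-numbered arrays correlated in their deviations from the group means at 0.006, 0.257, 0.116 and 0.063 across genes. Differently numbered arrays correlated at -0.21 to 0.154. For replicates 2, 3 and 4 the same-numbered array of the other group was the closest one, by little for 3 and 4. Hypoosmotic replicate 3 correlated at 0.116 with normoosmotic replicate 3 and at 0.111 with normoosmotic replicate 1. Hypoosmotic replicate 4 correlated at 0.063 with normoosmotic replicate 4 and at 0.038 with normoosmotic replicate 3. The labels do not say what the number marks, so it was left out of the main fit, and whether it pairs samples was not tested. Some settings use fewer arrays or genes, and the causes of these differences were not tested.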
